A study of Arabidopsis thaliana with 11 samples.

Results

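The binding of APETALA1 (AP1) and SEPALLATA3 (SEP3) was described at the 4 genes of the AP1/FRUITFULL group of MADS-box genes. These are AP1 (AT1G69120), CAULIFLOWER (CAL, AT1G26310), FRUITFULL (FUL, AT5G60910) and AGAMOUS-LIKE 79 (AGL79, AT3G30260), 4 of 37899 annotated nuclear genes of Arabidopsis thaliana. A binding site (BS) was counted when the gene columns of a deposited peak list named one of the 4 loci. This held for 45 of 18963 peaks in 6 lists, of which 24 lay at FUL, 19 at AP1, 2 at CAL and 0 at AGL79.

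MADS-domain proteins bind DNA as dimers at CArG boxes, elements with an A/T-rich core between CC and GG, and combine into larger complexes for which SEP3 is a central partner. AP1 gives newly formed meristems their floral identity and later specifies sepals and petals. CAL is its closest relative and acts redundantly with it, so that plants lacking both genes keep producing meristems in place of flowers. FUL acts in inflorescence meristems and in the fruit valves, and AP1 is known to keep FUL expression out of young flowers. The lists address whether AP1 and SEP3 bind the genes of the group to which AP1 itself belongs, and at which stage.

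The tissue was inflorescences of Landsberg plants with the genotype pAP1:AP1-GR ap1-1 cal-1, treated with dexamethasone (DEX) each day. The endogenous AP1 and CAL genes are therefore mutant in all 11 samples, mock controls included, and the AP1 protein precipitated is a fusion to the glucocorticoid receptor (GR) made from a transgene under the AP1 promoter. Antibodies against GR and against a SEP3 peptide were used, at 2 days (meristem specification), 4 days (organ specification) and 8 days (organ differentiation), and pre-immune serum gave 1 mock sample per day. Both factors have 2 samples at day 2 and 1 sample made of combined replicates at days 4 and 8. The SEP3 day 2 samples are titled as day 2 while their tissue label reads 4 days, so that each SEP3 day 2 value below rests on the titles.

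Each list was called on combined replicates, so none of the values has a replicate spread, and all comparisons are descriptions without a test. The fold enrichment of a BS is the read pileup at its summit over the background that the peak caller took from the mock control. Because the lists were called separately, a fold was placed in its own list as a percentile, the percent of the list's peaks with a lower fold. The lists held 498, 956 and 1075 AP1 peaks and 1776, 6843 and 7815 SEP3 peaks at days 2, 4 and 8, and the median folds were 4.09, 4.20 and 3.14 in the AP1 lists, against 4.34, 4.20 and 3.27 in the SEP3 lists. Coordinates are TAIR10 positions counted from 1, and gene models are those of RefSeq. Read numbers of the libraries were not analysed here.

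Sequences are shown for the 5 BSs where both factors had a listed summit and the window did not reach a UTR. The start-site BSs of AP1 and FUL are therefore left out. In the FUL intron, AP1 had such a summit at day 8 only. The sequences run 5′ to 3′ on the strand of the gene, which is the minus strand in each case, and are centred on the median summit. Capitals mark CArG boxes, exact or with 1 mismatch, and in the FUL intron the letters CACGTG, known as a G-box. The last 2 lines are single boxes with their flanks, shown as the only box near a CAL summit and the only exact box in a bound region of AP1.
AP1 distal BS, chr1:25988840-25988980, all 6 lists: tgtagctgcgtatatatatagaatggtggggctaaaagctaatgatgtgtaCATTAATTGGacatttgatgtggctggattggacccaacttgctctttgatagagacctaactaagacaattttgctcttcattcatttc
AP1 middle BS, chr1:25987890-25988030, all 6 lists: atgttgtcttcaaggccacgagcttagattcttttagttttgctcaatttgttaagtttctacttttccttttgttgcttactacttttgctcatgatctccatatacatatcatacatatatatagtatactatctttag
FUL far upstream BS, chr5:24508514-24508654, 4 lists: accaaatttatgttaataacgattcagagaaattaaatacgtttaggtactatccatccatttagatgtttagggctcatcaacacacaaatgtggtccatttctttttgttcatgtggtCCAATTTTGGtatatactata
FUL near upstream BS, chr5:24507165-24507305, all 6 lists: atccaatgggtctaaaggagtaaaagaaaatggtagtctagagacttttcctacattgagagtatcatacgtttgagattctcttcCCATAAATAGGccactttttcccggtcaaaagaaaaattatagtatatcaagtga
FUL intron BS, chr5:24505421-24505561, 4 lists: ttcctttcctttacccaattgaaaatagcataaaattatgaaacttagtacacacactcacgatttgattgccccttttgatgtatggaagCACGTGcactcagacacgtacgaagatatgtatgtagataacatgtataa
CAL box in the 5′ UTR, chr1:9103560-9103589, 2 SEP3 lists: agaaaactttCCTAATTAGAtcaagatcgt
AP1 box in the first intron, chr1:25985762-25985791, exact match: tctagggcttCCATTTTTGGattttttgat

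AP1 and FUL were among the targets in all 6 lists, CAL was a target of SEP3 alone, and AGL79 was a target in none. Thus 2 of 4 loci had an AP1 BS at each day, where 1.36%, 2.70% and 2.97% of all annotated nuclear genes were named at days 2, 4 and 8. SEP3 lists named 3 of 4 loci at days 2 and 4 and 2 of 4 at day 8, against 5.05%, 19.4% and 21.4% of all genes. All genes here are the 37899 RefSeq gene and pseudogene records, whereas the authors assigned peaks to TAIR10 genes. Records without a TAIR10 gene could not be named, so that shares of named genes may be too low and of unnamed genes too high. The 4 loci were also chosen with earlier results of these data known. Genes named in all 6 lists, as AP1 and FUL were, numbered 285 or 0.752% of annotated genes. Joined where they overlapped by at least 1 bp, the 45 peaks formed 9 bound regions, 3 at AP1, 5 at FUL and 1 at CAL.

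**Figure D1:**
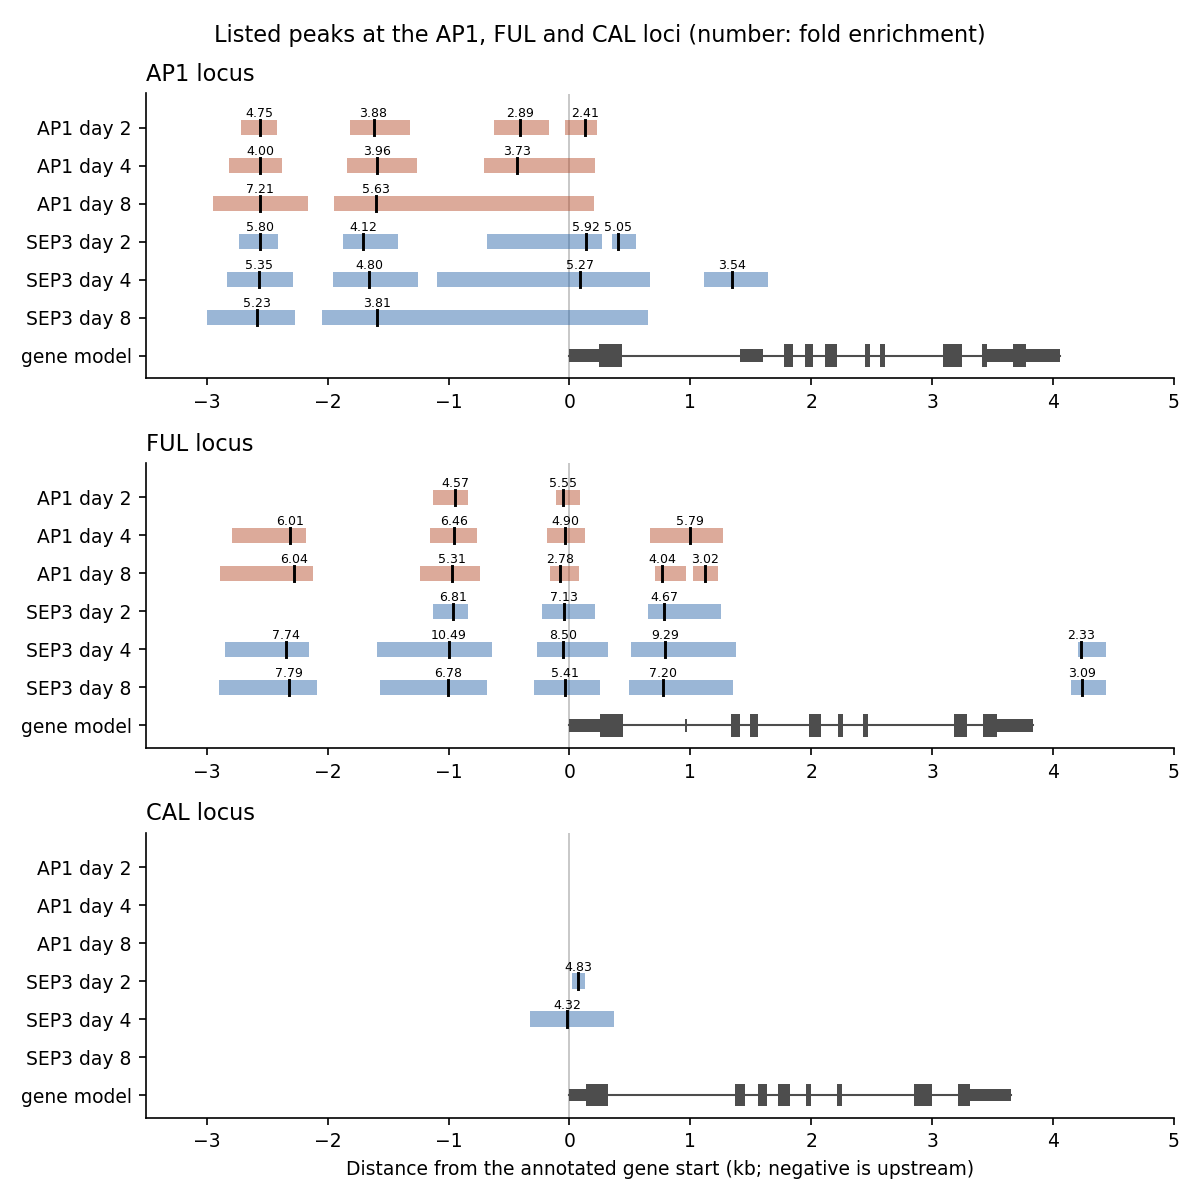
Listed peaks at the AP1, FUL and CAL loci in the 6 lists. The horizontal axis is the distance from the annotated gene start in kb with upstream positions negative, bars are peaks (red for AP1, blue for SEP3), black ticks are summits, numbers are fold enrichments, and the gene model below shows coding exons as tall boxes and UTRs as low boxes. The distal BS of AP1 and the start and near upstream BSs of FUL recur in all 6 lists, while CAL has 2 SEP3 peaks and no AP1 peak.

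The AP1 gene (chr1:25982294-25986349) had its most constant BS far upstream. This distal BS was listed for both factors at all 3 days, and its 6 summits lay 2557 to 2582 bp upstream of the gene start, within 25 bp of each other. AP1 folds there were 4.75, 4.00 and 7.21 at days 2, 4 and 8, or percentiles of 72.3, 41.8 and 98.5. SEP3 folds were 5.80, 5.35 and 5.23, or percentiles of 79.1, 69.4 and 83.6. It was the strongest BS of the locus in 5 of 6 lists, the exception being SEP3 at day 2, where the start-site peak had a fold of 5.92, and by −log10 q it was the strongest in all 6. At day 8 it held rank 16 by fold among the 1075 AP1 peaks. The 6 rows also name the tRNA gene AT1G69130, whose start lies nearer to the summits, at 799 to 824 bp, than that of AP1.

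A middle BS was also listed by both factors at all 3 days, with summits 1588 to 1705 bp upstream. AP1 folds were 3.88, 3.96 and 5.63 at days 2, 4 and 8, and SEP3 folds were 4.12, 4.80 and 3.81. The distal BS had the higher fold in each list, by 1.22, 1.01 and 1.28 times for AP1 and by 1.41, 1.11 and 1.37 times for SEP3. The 2 sites were thus nearly equal at day 4 and further apart at days 2 and 8 for both factors.

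Around the gene start, summits differed between the factors. AP1 had a proximal summit 410 bp upstream (fold 2.89) in the day 2 list and 434 bp upstream (fold 3.73) in the day 4 list. SEP3 instead had a summit in the 5′ UTR, 141 bp inside the gene on day 2 with a fold of 5.92 and 91 bp inside on day 4 with a fold of 5.27. On day 2 AP1 also had a peak in the 5′ UTR, 127 bp inside, whose fold of 2.41 was at percentile 0.402 of its list, against percentile 80.6 for the SEP3 peak there. The AP1 and SEP3 peaks around the start still overlapped, the SEP3 peak being 948 bp wide at day 2 and 1761 bp wide at day 4. SEP3 alone had a summit in the coding part of the first exon on day 2 (fold 5.05) and in the first intron on day 4 (fold 3.54).

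At day 8 each factor had only 2 peaks at the AP1 gene, and one of the 2 was very wide. The AP1 peak with its summit at the middle BS was 2156 bp wide, the widest of the 1075, and that of SEP3 was 2700 bp wide, at rank 9 of 7815. Both reached from the middle BS into the transcribed part of the gene. Peaks at the locus covered 1515, 1934 and 2936 bp in the AP1 lists and 1932, 3543 and 3427 bp in the SEP3 lists at days 2, 4 and 8. Peak number was 4, 3 and 2 in the AP1 lists and 4, 4 and 2 in the SEP3 lists, and the lower number at day 8 thus went with joined peaks. As many or more were found at 2.14%, 2.94% and 20.0% of the genes named in the AP1 lists. In the SEP3 lists these shares were 2.14%, 2.54% and 32.1%.

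FUL (chr5:24502434-24506269, annotated as AGL8) had fewer BSs than AP1 in both day 2 lists and more in the 4 later ones, where the AP1-locus peaks of day 8 were joined. It had 2, 4 and 5 AP1 BSs and 3, 5 and 5 SEP3 BSs at days 2, 4 and 8. As many or more were found at 16.5%, 0.881% and 0.355% of the genes named by AP1 and at 5.69%, 0.638% and 0.704% of those named by SEP3. Its strongest BS was at percentiles 85.9, 92.5 and 96.5 of the AP1 lists and 90.4, 97.9 and 97.6 of the SEP3 lists, above the strongest BS of AP1 in each list except AP1 at day 8.

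The place of the strongest FUL BS by fold differed between days. At day 2 it was the BS at the gene start, with summits 36 to 74 bp upstream over the 6 lists. At day 4 it was the near upstream BS, with summits 944 to 1007 bp upstream. At day 8 it was the far upstream BS, with summits 2275 to 2344 bp upstream, which was listed at days 4 and 8 and in neither day 2 list. For both factors the highest fold thus lay farther from the gene at day 8 than at day 4. At day 2 the start-site peaks were called on a low background, and their lead in fold was not seen in the pileup. The pileup at the summit, taken as fold times the background described further on, was 35.0 reads at the start and 35.2 at the near upstream BS in the AP1 list of day 2, and 40.0 and 43.4 in that of SEP3. At days 4 and 8 the BS with the highest fold also had the highest pileup. By −log10 q the strongest BS was the one with the highest fold except in SEP3 at day 2, where the near upstream BS had 18.4 and the start-site BS 17.6.

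The start-site BS of FUL had AP1 folds of 5.55, 4.90 and 2.78, at percentiles 85.9, 69.7 and 22.7 of days 2, 4 and 8. SEP3 folds at the start were 7.13, 8.50 and 5.41, at percentiles 90.4, 92.6 and 85.4. The AP1 peak at the start was therefore lower in its list at each later day, while the SEP3 peak stayed among the higher ones. At the near upstream BS, AP1 folds were 4.57, 6.46 and 5.31 and SEP3 folds were 6.81, 10.49 and 6.78. Divided by the start-site fold of the same list these were 0.823, 1.32 and 1.91 in the AP1 lists, and 0.955, 1.23 and 1.25 in the SEP3 lists. The far upstream BS had AP1 folds of 6.01 and 6.04 and SEP3 folds of 7.74 and 7.79 at days 4 and 8, or 1.23 and 2.17 times the start-site fold for AP1 and 0.911 and 1.44 times for SEP3. The ratios of both upstream BSs to the start were thus higher at day 8 than at day 4 for each factor, least so for the near upstream BS in SEP3.

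**Figure D2:**
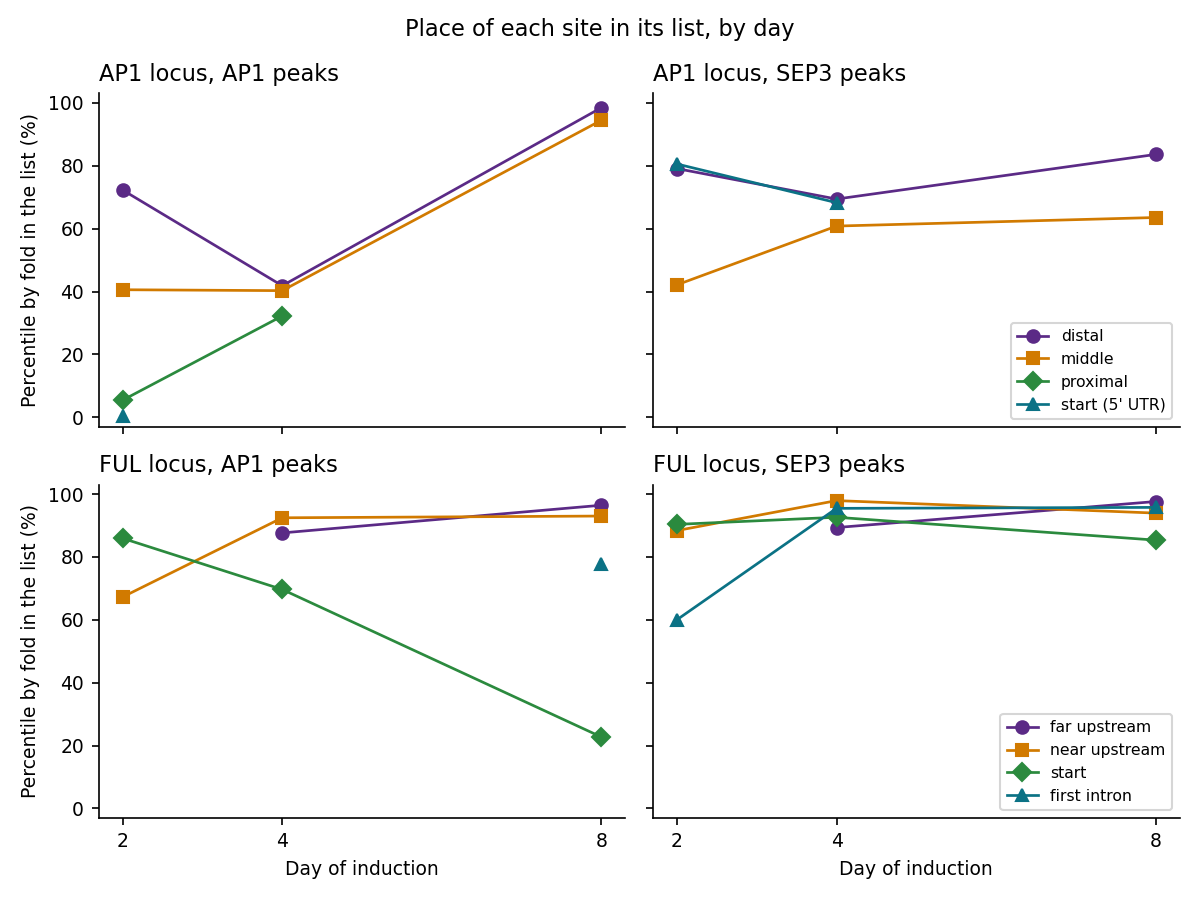
Percentile by fold of each recurrent BS in its list (vertical axis, percent of the list's peaks with a lower fold) against day of induction (horizontal axis), for the AP1 locus (top) and the FUL locus (bottom) and for AP1 peaks (left) and SEP3 peaks (right). Colours are sites, a missing point is a site without a listed summit, and the deeper intron summits of AP1 at FUL are not drawn. The start-site BS of FUL is at percentile 22.7 of the AP1 list at day 8 and at 85.4 of the SEP3 list, and the AP1 locus is at 98.5 in the AP1 list of day 8.

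The first intron of FUL held a BS in 5 of 6 lists. SEP3 summits were 774 to 790 bp inside the gene, with folds of 4.67, 9.29 and 7.20 at days 2, 4 and 8. AP1 had a summit 996 bp inside at day 4, with a fold of 5.79, and at day 8 it had 2 peaks, 766 bp inside with a fold of 4.04 and 1120 bp inside with a fold of 3.02. AP1 had no intron peak at day 2, when SEP3 had one. SEP3 also had a peak 395 bp past the gene end at day 4 (fold 2.33) and 406 bp past it at day 8 (fold 3.09), which the lists also assign to the neighbouring gene RLK1, whose start is nearer, at 258 to 269 bp.

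Further binding lay just beyond the 3000 bp limit used to assign peaks to genes. All 6 lists had a peak 3173 to 3297 bp upstream of FUL to which no gene was assigned, at percentiles 55.6 to 92.9. All 6 also had a peak 4121 to 4374 bp upstream, which was assigned to AT5G60920 (COB), at percentiles 52.2 to 95.7. The farthest FUL BS that was counted lay 2344 bp upstream.

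CAL (chr1:9099994-9103644), the closest relative of AP1, had a single BS at its start that was listed by SEP3 at days 2 and 4. The fold was 4.83 at day 2, with the summit 73 bp inside the gene in the 5′ UTR, and 4.32 at day 4, with the summit 17 bp upstream. These were at percentiles 63.9 and 52.4 of their lists, near the middle. The same rows name AT1G26320, whose start was 1377 to 1467 bp away. At day 8 the nearest SEP3 summit was 8402 bp from the CAL start, although the SEP3 list of that day was the longest of the 6. The nearest AP1 summits were 119687, 117670 and 107625 bp away at days 2, 4 and 8. The lowest −log10 q of the SEP3 day 8 list was 3.18 and those of the AP1 lists were 3.06, 3.06 and 3.29, so that weaker binding at CAL would not be listed. A pattern of SEP3 at days 2 and 4 and nothing else was found for 71 genes in all, or 0.187%.

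AGL79 (chr3:11908870-11913166) had no listed BS, as did 28942 genes or 76.4% of those annotated. The nearest summit of any list was 58638 bp from the gene, in SEP3 at day 8. The gene has an exact CArG box in a coding exon, 2209 bp from its start, that was in no peak. Such a box is common, since 33.5% of 27444 protein-coding genes had one from 3000 bp upstream to 1000 bp downstream. In that window AP1 and FUL each had 2, of which 1 lay in a bound region, and CAL had 0.

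Peaks of AP1 and SEP3 overlapped at the AP1 and FUL loci. The factors were precipitated separately, so that binding to the same DNA molecules was not tested. All 20 AP1 BSs at these loci overlapped a SEP3 BS of the same day, with 6, 7 and 7 of them at days 2, 4 and 8. Over the whole lists 85.1%, 99.8% and 96.3% of AP1 BSs did so, so that the share at the 4 loci was near that of all AP1 BSs. In 14 of 20 the nearest SEP3 summit was within 50 bp and in 16 within 150 bp, and the summits at the distal BS of AP1 were 3, 14 and 22 bp apart at days 2, 4 and 8. Conversely, 5 of 8, 7 of 10 and 6 of 7 SEP3 BSs at the loci overlapped an AP1 BS at days 2, 4 and 8, against 23.3%, 13.2% and 12.0% of all SEP3 BSs. Peaks at the loci were wider than most of their lists, and the part of width in this overlap was not tested. The SEP3 BSs without AP1 were those of CAL, the downstream BS of FUL, the first-exon and intron BSs of AP1 and the FUL intron BS of day 2.

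The significance of the peaks at the AP1 gene was out of step with their folds. All 19 of them stood at a higher percentile by −log10 q than by fold, by 1.21 to 58.6 points. Of the 24 FUL peaks, 22 stood lower by −log10 q than by fold, by at most 12.9 points. At day 4 the strongest AP1 peak of the locus was at percentile 41.8 by fold and 85.8 by −log10 q.

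The fold and the p-value of a peak together fix the background against which it was called, if the p-value is the upper tail of a Poisson distribution. This implied background is in reads stacked at the summit, in the caller's scaling. At the AP1 locus it ranged over 17.2 to 23.3, 21.8 to 22.5 and 27.3 to 38.5 in the AP1 lists of days 2, 4 and 8, where the medians of the whole lists were 8.73, 9.58 and 16.6. In the SEP3 lists it was 12.3 to 16.2, 24.6 to 30.5 and 44.6 to 64.1, against medians of 7.52, 12.2 and 27.4. All 19 peaks were thus above their list median, by 1.62 to 2.67 times, and none was below percentile 97.2 of its list. The peak over the middle BS had the highest implied background of all 7815 SEP3 peaks at day 8, and the proximal peak that of all 498 AP1 peaks at day 2.

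Peaks of the other loci did not share this high background. At FUL it was 0.721 to 1.37 times the list median, with 0 of 24 peaks at or above percentile 95. Of the FUL peaks, 3 of 24 lay below percentile 5, all at the start-site BS. At day 2 these were at percentile 2.61 of the AP1 list and 4.11 of the SEP3 list, or 0.721 and 0.745 times the median. The start-site peak of AP1 at day 8 was at percentile 0.744 but at 0.995 times the median, which is close to the median. At CAL the implied background was 0.999 and 1.04 times the median. As many as 98.8% of the AP1 peaks at day 2 were below the lowest value of the AP1 locus, which 6 of 498 peaks reached. The AP1 lists of days 4 and 8 had 6 of 956 and 24 of 1075 such peaks. For SEP3 the lowest value of the locus was reached by 49 of 1776, 26 of 6843 and 33 of 7815 peaks at days 2, 4 and 8. The plants carry AP1 sequence at the endogenous gene and in the transgene, reads of both map to the same place, and the mock control came from the same line. The part of extra transgene copies in the higher background and −log10 q was not tested. The fold is a ratio to that background, and places in the lists are therefore given by fold.

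**Figure D3:**
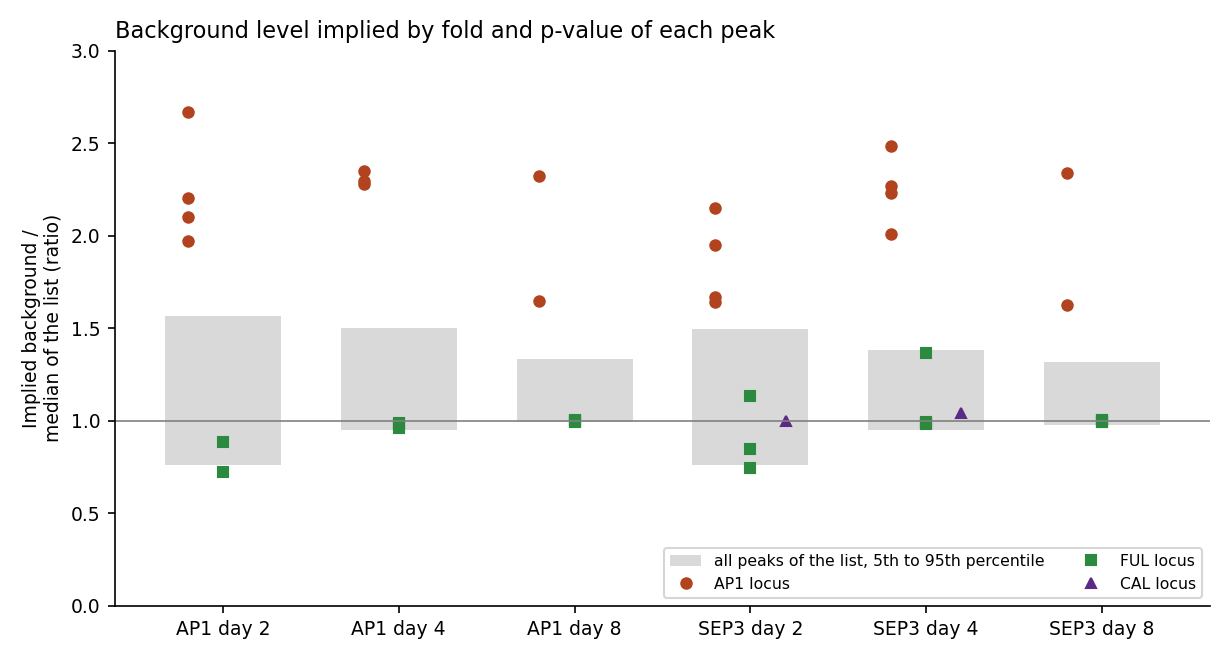
Background level implied by fold and p-value, divided by the median of the list (vertical axis, ratio), for the peaks at the AP1, FUL and CAL loci in each list (horizontal axis). Points are single peaks and grey bars run over the 5th to the 95th percentile of all peaks in the list. All 19 AP1-locus peaks lie between 1.62 and 2.67, above the grey bars, and the FUL peaks lie between 0.721 and 1.37.

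An exact CArG box was in 2 of the 9 bound regions. At FUL the sequence CCAATTTTGG was inside all 4 far upstream peaks, 14.5 to 83.5 bp from their summits, and at AP1 the exact box of the first intron was in 2 of 12 peaks of its region, at least 167.5 bp from any summit. Boxes with 1 mismatch were closer to the summits that recurred. The distal BS of AP1 had CATTAATTGG in all 6 peaks, 4.5 to 18.5 bp from the summit. The near upstream BS of FUL had a pair of overlapping boxes, CATAAATAGG and CCATAAATAG, in all 6 peaks, with the nearer summits 0.5 and 1.5 bp away and the farthest 62.5 and 61.5 bp away. At CAL the box CCTAATTAGA was 3.5 bp from the summit of day 2 and 86.5 bp from that of day 4. No box with at most 1 mismatch lay within 50 bp of a summit at the middle BS of AP1 or at the start-site BS of FUL.

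Set against all peaks, the frequency of such boxes depended on the window. Within 50 bp of the summit, 14 of 45 peaks (31.1%) had a box with at most 1 mismatch, where 31.9% to 34.7% of all peaks in the 6 lists did, and 11.6% of all windows of 101 bp along the genome. Of the 14, 6 were at the distal BS of AP1 and 4 at the near upstream BS of FUL. The 45 peaks are repeated calls of 9 regions, so that none of the shares of 45 in this paragraph counts separate sites. Exact boxes were near 1 of 45 summits (2.22%), against 5.58% to 7.09% of all peaks and 0.593% of genome windows. Over whole peaks, 36 of 45 (80.0%) held a box with at most 1 mismatch, against 42.2% to 62.1% of all peaks, and 6 of 45 (13.3%) an exact one, against 8.33% to 10.4%. Peaks at the 4 loci were wider, with medians of 290 to 806 bp over the lists against 144 to 360 bp for all peaks, and the part of width in the whole-peak shares was not tested. The FUL intron BS had CACGTG, which reads alike on both strands, within 50 bp of its summit in AP1 at day 8 and in SEP3 at all 3 days. This element was near 3.53% of AP1 summits at day 8 and near 5.24%, 5.44% and 5.8% of SEP3 summits at days 2, 4 and 8. A match of letters is not evidence of contact with the protein.

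The sister group of SEPALLATA and AGL6 genes, whose proteins join AP1 in complexes, also held both bound and unbound loci. SEP3, SEP4 and AGL6 were named in all 6 lists, SEP2 in the 3 SEP3 lists and SEP1 in those of days 4 and 8, whereas AGL13 was named in none. The AP1 lists thus named 3 of 6 of these genes at each day, and the SEP3 lists 4, 5 and 5. The SEP3 gene had 3, 4 and 5 AP1 BSs and 3, 5 and 5 SEP3 BSs, close to the numbers at FUL, with its strongest BS at percentiles 97.0 to 99.9, above that of FUL in each list. The strongest BS of the AP1 gene was below that of the SEP3 gene in each list, by least at day 8 in the AP1 lists (98.5 against 98.7).

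**Figure D4:**
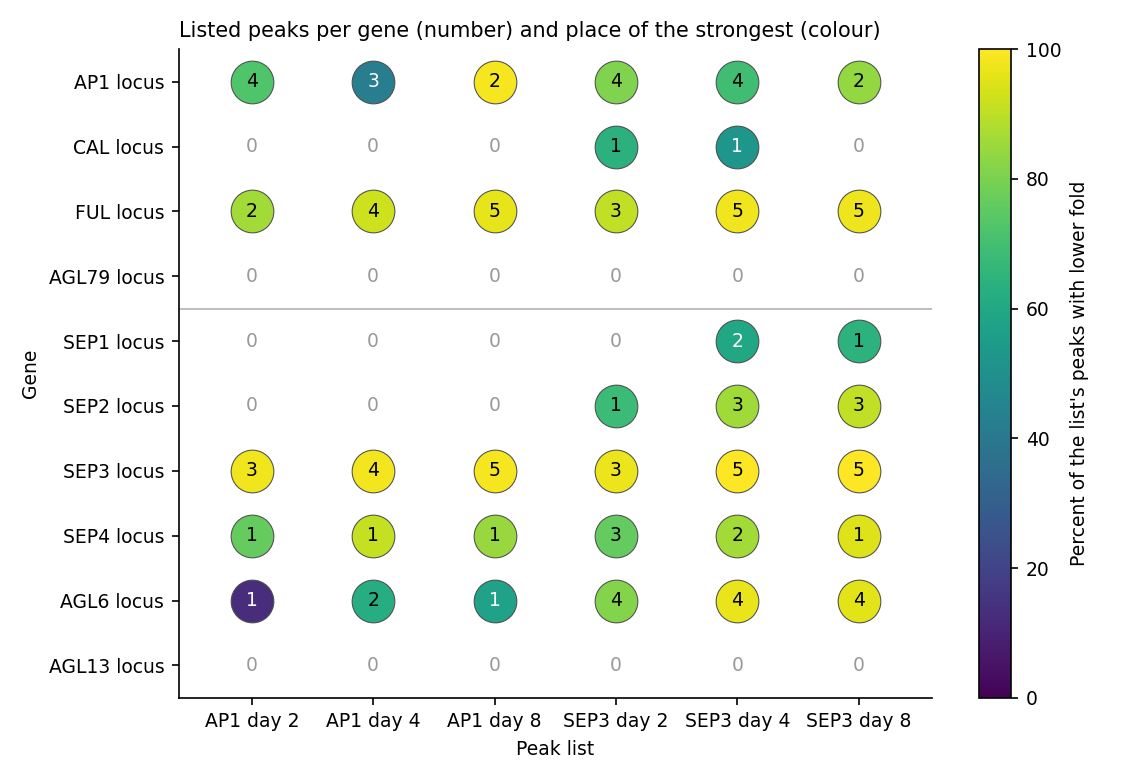
Number of listed BSs per gene (number in each cell) and percentile by fold of the strongest (colour) for the 4 loci of the AP1/FUL group and the 6 of the SEPALLATA and AGL6 group (vertical axis) in the 6 lists (horizontal axis). A grey 0 is a gene not named in the list. AP1, FUL, SEP3, SEP4 and AGL6 are named in all 6 lists, and AGL79 and AGL13 in none.

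Genes around AP1 in the floral meristem identity network were counted as well. They were chosen with earlier results of these data known, so that the counts describe these genes and are not a test. Of 16 genes on this list, AP1 lists named 9, 12 and 11 and SEP3 lists named 11, 16 and 14 at days 2, 4 and 8, where the same lists named 1.36%, 2.70%, 2.97%, 5.05%, 19.4% and 21.4% of all genes. UFO, MYB17 (LMI2), FD, SOC1, SVP, SPL4, SPL9 and AP2 were in all 6 lists. LFY, an activator of AP1, was absent from the AP1 list of day 2 and had 3 and 1 AP1 BSs at days 4 and 8. SOC1, a flowering-time gene of the MADS family, had its strongest BS at percentiles 96.8 to 99.7, above those of FUL in each list. FT and TFL1, which act for and against the floral fate of meristems, were named in a single list, that of SEP3 at day 4.

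Likeness over the lists was measured as the mean absolute difference of the 6 percentiles of the strongest BS, with 0 where a gene was not named. The genes nearest to FUL were AT5G66720, AT4G36970 and ATAUX2-11, which differed by 2.42, 2.60 and 2.60 points on average. Those nearest to AP1 were AT5G57130 and PAP28, which share their peaks and both differed by 13.3 points, and AT5G21280 at 13.5 points. No gene outside those that share its peaks was thus as near to AP1 as others were to FUL, and FUL and AP1 differed by 19.8 points from each other. The nearest to CAL were AT4G12060, AT4G12065 and AT4G12070, which share a BS, at 2.08 points.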

How the data were processed

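The data are chromatin immunoprecipitation sequencing (ChIP-seq) peak lists. Per the labels and the study's methods, the authors basecalled reads with CASAVA 1.7 or 1.8, mapped them to TAIR10 with Bowtie 0.12.7, removed organellar and multiply mapping reads, combined replicates, ran MACS2 with the mock sample of each day as control and assigned genes from 3000 bp upstream to 1000 bp downstream. The deposited fold enrichment is a linear ratio, and the significance columns were deposited as −log10 p-value and −log10 q-value. The settings used to scale libraries are not given in the sources used here.

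Python 3.11.15 with pandas 2.3.3 and scipy 1.17.1 was used. Blank lines (230 and 111) were dropped from the AP1 lists of days 4 and 8. The reference was RefSeq TAIR10.1, whose nuclear chromosomes are those of TAIR10. No peak passed a chromosome end, and 99.8% of the authors' pairs of peak and annotated gene had the summit within their window. Peaks were overlapped by at least 1 bp. A CArG box was 10 letters, CC and GG around 6 letters that are A or T. The implied background was solved from fold and p-value. Simulated peaks drawn from the same Poisson model were used to check the solving with rounded values. They could not test whether that model holds for the deposited peaks.

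All 4 members were named, and for each member with BSs in at least 2 lists the 3 genes nearest by percentiles, leaving out genes that share one of its peaks. The members and the gene lists were chosen with earlier results of these data known. Alternatives covered the gene window, a −log10 q limit of 10, the overlap rule, ranking by −log10 q, the box definition and the pseudocount.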

Additional observations from a re-analysis of the deposited data

How the results depend on the processing

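The loci named in each list were the same in number with a window of 3000 bp upstream to 1000 bp downstream in place of the authors' assignment. They were also the same in number when only peaks with −log10 q from 10 upward were kept. This limit left 3 of 6 AP1 BSs at day 2. Counting from 1000 bp upstream to the end of the gene left 4 and 4 AP1 BSs at days 4 and 8 and 6 and 2 SEP3 BSs at days 4 and 8. The day 8 summits of the AP1 locus, 1588 to 2582 bp upstream, were all outside this shorter window. With it the AP1 locus thus had no BS in either day 8 list. Where the overlap had to cover at least 50% of both peaks, the 9 regions became 15. At day 2 this rule left 3 of 6 AP1 BSs shared with SEP3, and at day 8 it left 4 of 7. No share of all AP1 BSs was computed under this rule. Whether the lower counts were particular to these loci was therefore not tested. Ranked by −log10 q, the strongest BS of AP1 moved to percentiles 95.6, 85.8 and 99.7 of the AP1 lists and 96.1, 90.6 and 93.0 of the SEP3 lists at days 2, 4 and 8. That of FUL moved to 73.1 and 89.6 in the AP1 lists of days 2 and 4 and to 84.5, 97.4 and 97.3 in the SEP3 lists, and that of CAL to 51.0 in SEP3 at day 4. A percentile was counted as moved when it left the 95% Wilson interval of the value by fold. Regions with a CArG box numbered 1 when the box had to lie within 50 bp of a summit, 9 when 1 mismatch was allowed, and 6 with both, the last chosen after seeing the data. A pseudocount of 1 in the implied background, also chosen after seeing the data, left the medians of the AP1, FUL and CAL loci within the range of their peaks. Ranking the lists by pileup was not run. Pileup was used only to compare BSs within FUL, as fold times the implied background.

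No paired analysis was possible because the deposited lists combine replicates, and for the same reason no replicate was left out. Absence from a list is not absence of binding, since only peaks past a limit were listed. Depth per library was not analysed here. Peak edges and the joining of neighbouring summits depend on the caller, so that numbers of BSs at the AP1 gene are less firm than the positions of its summits. Differences between days rest on 1 list per factor and day.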
